A study of Mus musculus with 35 samples.

Results

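The proteasome is the large protease that degrades most short-lived and damaged cellular proteins after they are tagged with ubiquitin. Its 20S core is a stack of alpha and beta rings, and the beta rings carry the cutting sites. The 19S cap, made of a ring of ATPases and a set of non-ATPase subunits, recognises ubiquitin, removes it, unfolds the protein and threads it into the core. Other caps called activators can take the place of the 19S cap. In neurons the pathway clears soluble proteins, and its handling of proteins with an expanded glutamine tract has been widely studied.

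The genes described here are the rows of the deposited striatal RNAseq table whose symbols start with Psma, Psmb, Psmc, Psmd or Psme, apart from the immunoproteasome genes Psmb8, Psmb9 and Psmb10, with a mean of at least 1 CPM (counts scaled to the library total) over the 35 mice. This choice took 39 of 22099 genes listed, and all 39 passed the filter on low counts. By role they were 7 alpha ring genes, 7 beta ring genes, 6 ATPases, 11 non-ATPases, 3 chaperones that help assemble the 19S cap (Psmd5, Psmd9 and Psmd10), 4 activators and Psmc3ip. Psmc3ip shares a symbol prefix only: its product works in meiotic recombination and is not a proteasome subunit. It was also the gene just inside the threshold, with a mean of 3.17 CPM, followed by Psmd10 with 12.6 CPM. Just outside it were Psmbeta, with 0.941 CPM and no counts in 7 mice, and the testis alpha subunit Psma8, with 0.179 CPM.

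The 35 mice were females on the C57BL6/J background, aged 299 to 304 days, with 1 library each. Htt Q111/+ mice carry an expanded CAG tract knocked into 1 allele of the mouse huntingtin gene, so that mutant and normal huntingtin are made from the gene's own promoter in every cell that uses it, and Htt +/+ mice are their littermates. Both genotypes had received weekly intraperitoneal injections of saline (4 µL/g), of an off-target control antisense oligonucleotide (control ASO, 50 mg/kg) or of an antisense oligonucleotide against huntingtin (Htt ASO, 50 mg/kg, labelled ASO1) from 2 to 10 months of age, with 6 mice in each group except 5 Htt +/+ mice on control ASO. The ASOs were meant to act outside the brain. RNA came from the right hemistriatum, except that 1 Htt +/+ mouse on Htt ASO was labelled as left.

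Total counts ranged from 32200158 to 38641924 per mouse. The targeted transcript, listed as Hdh, did not pass the test between Htt ASO and control ASO in these striata (log2 fold change −0.077, SE 0.068, adjusted p = 0.967), with levels of 60.9 to 104 CPM over all mice. By genotype, Hdh was lower in Htt Q111/+ mice (−0.23, SE 0.055, adjusted p = 0.001). Of 8 markers of medium spiny neurons, the main neurons of the striatum, none was near 0. Their summed level was 6682 ± 343 CPM in Htt +/+ mice (SD, n = 17) and 4619 ± 235 CPM in Htt Q111/+ mice (SD, n = 18), and these ranges did not overlap. In bulk tissue, fewer cells of a type and less RNA per cell cannot be told apart. The library titles carry a number after the letter L. The 6 mice of L7 were all Htt Q111/+ (3 on saline, 2 on control ASO, 1 on Htt ASO), so within L7 genotype and L number cannot be told apart, and counts are given below with and without them.

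The promoters of the 4 genes with the smallest adjusted p between genotypes are shown first. Of these genes 3, Psmb5, Psme1 and Psme2, sit on chromosome 14. RefSeq gives a second start for Psme2 that is not shown. Each is the RefSeq window on GRCm38.p6 from 250 bases before to 50 bases after the transcription start, written 5′ to 3′ on the strand of the gene. Capitals mark a match to 1 of 3 motifs searched on both strands: TGACNNNGC, the core of the antioxidant response element read by Nfe2l1 and Nfe2l2; CCAAT; and GAAA followed after 2 bases by GAAA, the core of the interferon-stimulated response element. The 3 motifs share no letters that would make 1 match count for another. A match is a description of the letters and not of a bound factor.
Psme1 (chr14:55578244-55578543, + strand): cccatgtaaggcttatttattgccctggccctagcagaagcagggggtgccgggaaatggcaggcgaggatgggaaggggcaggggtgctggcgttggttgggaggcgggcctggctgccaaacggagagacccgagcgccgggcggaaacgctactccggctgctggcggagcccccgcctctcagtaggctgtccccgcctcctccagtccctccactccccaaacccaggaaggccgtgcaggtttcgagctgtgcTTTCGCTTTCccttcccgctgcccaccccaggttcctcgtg
Psme2 (chr14:55591052-55591351, − strand): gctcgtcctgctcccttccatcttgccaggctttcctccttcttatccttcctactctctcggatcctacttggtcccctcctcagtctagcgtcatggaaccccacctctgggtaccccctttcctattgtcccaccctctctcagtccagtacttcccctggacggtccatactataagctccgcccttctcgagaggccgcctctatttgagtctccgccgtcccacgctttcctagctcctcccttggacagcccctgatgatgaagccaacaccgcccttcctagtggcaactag
Psmb5 (chr14:54617946-54618245, − strand): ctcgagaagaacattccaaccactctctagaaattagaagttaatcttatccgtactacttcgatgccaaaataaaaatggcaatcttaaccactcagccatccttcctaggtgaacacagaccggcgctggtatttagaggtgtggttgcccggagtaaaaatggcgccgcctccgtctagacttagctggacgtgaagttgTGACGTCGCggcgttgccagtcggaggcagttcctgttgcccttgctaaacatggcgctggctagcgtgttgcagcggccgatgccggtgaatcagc
Psmc4 (chr7:28050043-28050342, − strand): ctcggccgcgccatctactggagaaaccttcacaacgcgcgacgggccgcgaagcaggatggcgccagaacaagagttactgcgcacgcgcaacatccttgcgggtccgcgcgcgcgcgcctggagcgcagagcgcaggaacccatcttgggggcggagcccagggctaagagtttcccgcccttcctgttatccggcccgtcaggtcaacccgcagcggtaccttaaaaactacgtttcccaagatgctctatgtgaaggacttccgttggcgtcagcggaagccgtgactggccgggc

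The Psme1 window held the GAAA pair on the opposite strand, 10 bases after the start, and the Psmb5 window held TGACNNNGC, beginning 47 bases before the start. The windows of Psme2 and Psmc4 held none of the 3. RefSeq had windows for 33 of the 39 genes. TGACNNNGC was present for 6 of the 33 (Psmb5, Psmb6, Psmc6, Psmd9, Psmd12 and Psme4), a share of 18.2% against 14% of all 27025 genes with windows. CCAAT was present for 13 (39.4% against 41.1%) and the GAAA pair for 4, Psmb3, Psmd4, Psmd9 and Psme1 (12.1% against 3.99%). Proteasome promoters of this length thus held the first and second motif at shares close to those of all genes.

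Proteasome transcripts as a whole were abundant and steady from mouse to mouse. Together they made up 0.272% of the counts, and the mean coefficient of variation within groups was 3.59% for the median gene, from 2.55% for Psmd2 to 11.3% for Psmc3ip. Levels between genes were compared as CPM per kb of transcript. In the beta ring, levels spanned a 1.48-fold range. They ran from 52.2 CPM per kb for Psmb1 to 77.1 for Psmb6, which carries the caspase-like site. The alpha ring ran from 22.5 (Psma2) to 72.5 (Psma6) CPM per kb. Among the ATPases, Psmc6 had the lowest level per kb (30.8) and Psmc5 the highest (87.7). The non-ATPases spread over a 4.34-fold range, from Psmd11, which clamps the cap to the core, at 15.7 CPM per kb to Psmd2, a docking platform for ubiquitin carriers, at 68.3. All 3 assembly chaperones lay far lower, between 8.91 (Psmd9) and 9.08 (Psmd5) CPM per kb, and the activators between 12.1 (Psme4) and 34.8 (Psme3). The transcript lengths behind these values came from a later annotation than the counts.

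**Figure D1:**
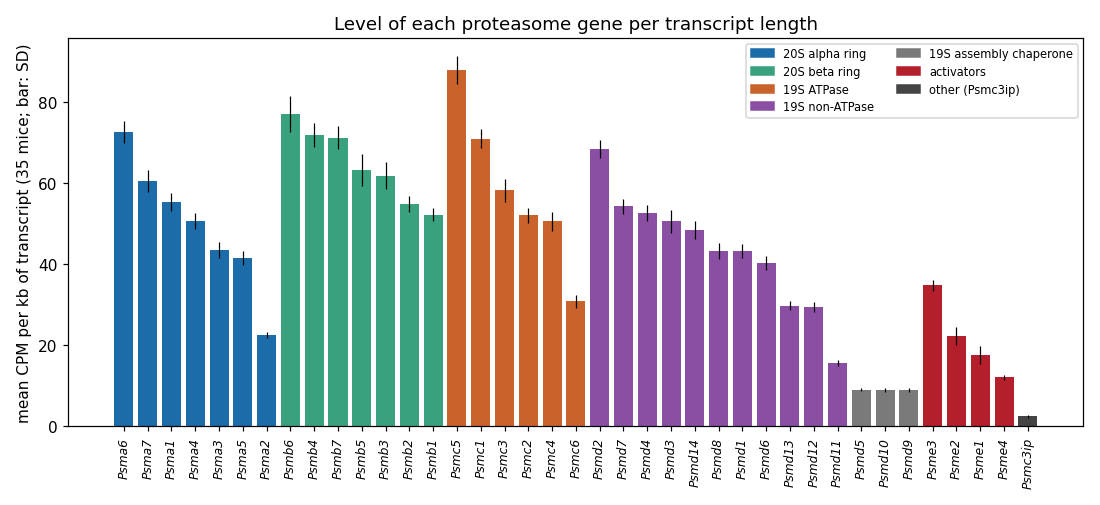
Mean level of each of the 39 genes in CPM per kb of transcript over the 35 mice (bars, with the SD as a line), coloured by role. The beta ring lies within a 1.48-fold range, and the assembly chaperones lie near 9 CPM per kb.

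The first comparison asked how the Q111 allele changed these genes, averaged over the 3 treatments. Of the 39 genes, 22 were higher in Htt Q111/+ than in Htt +/+ striatum at an adjusted p below 0.05 and none was lower (limma after voom, Benjamini-Hochberg over 17639 genes). This is 56.4% of them, against 21.8% of all tested genes called higher and 18% called lower, or 24.3% and 19.8% of genes whose mean was 1 CPM or more. The differences were small. The median log2 fold change of the 39 was 0.051, which is 3.61% higher, against 0.0037 for all tested genes, and 35 of 39 were positive (89.7%, against 51.2% of all genes). EdgeR's quasi-likelihood test called 22 of them and DESeq2 18. The genes were chosen with earlier results of these data known, so their counts are a description and no test of the list was made.

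**Figure D2:**
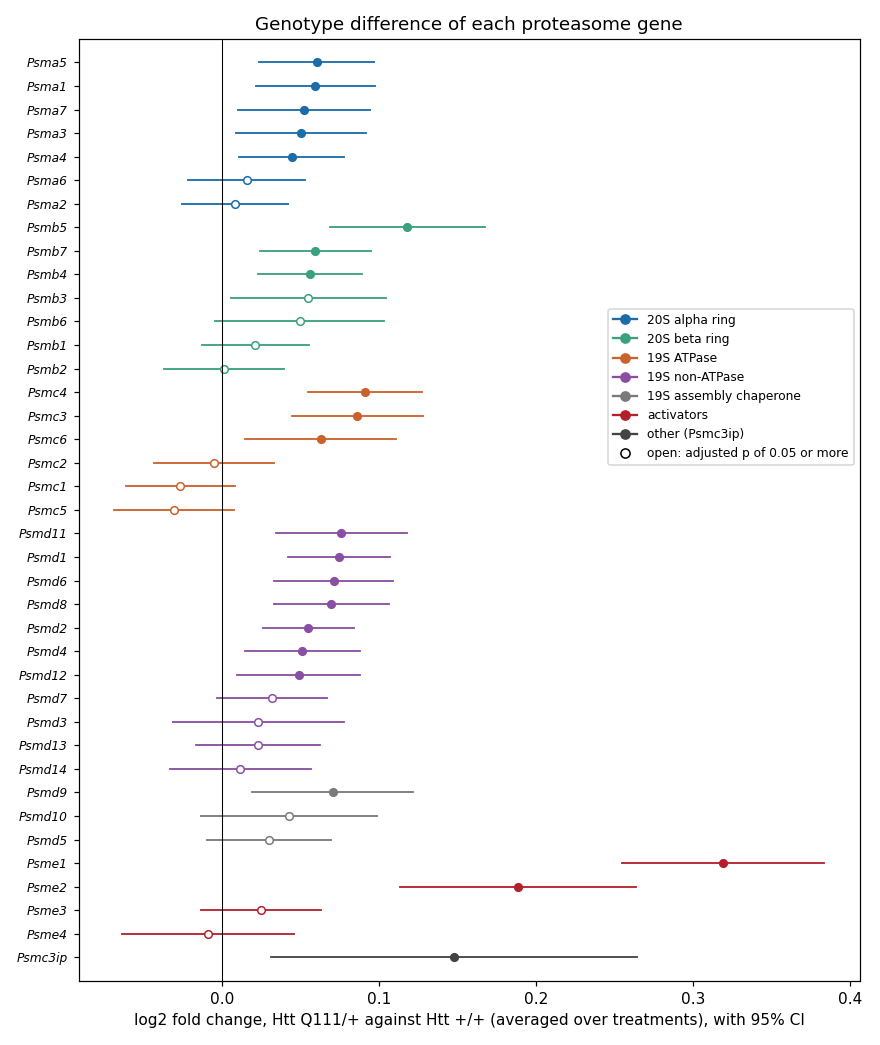
Log2 fold change between Htt Q111/+ (n = 18) and Htt +/+ mice (n = 17) for each gene with its 95% confidence interval, grouped by role, filled where the adjusted p was below 0.05. The 22 filled points all lie to the right of 0, with Psme1 and Psme2 farthest among the subunits and activators.

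The activators Psme1 and Psme2, whose proteins form the PA28 ring that interferon gamma induces, showed the largest differences of the 39 genes. Psme1 ranged from 14.8 to 19.1 CPM in Htt +/+ mice, with a median of 17.5, and from 19.2 to 24.3 CPM in Htt Q111/+ mice, with a median of 21.8. Every Htt Q111/+ mouse was therefore above every Htt +/+ mouse, which held for 0.93% of all tested genes and for no other of the 39. Its log2 fold change was 0.32 (SE 0.032, 95% confidence interval 0.25 to 0.38, adjusted p = 4.41e-10), or 24.8% higher. On control ASO, the 5 Htt +/+ mice had Psme1 at 14.8, 15.5, 16.9, 17.2 and 17.9 CPM, and the 6 Htt Q111/+ mice lay between 19.2 and 24.3 CPM. Psme2 ranged from 15.8 to 21.3 CPM (median 18.2) in Htt +/+ mice and from 17.6 to 24.1 CPM (median 20.8) in Htt Q111/+ mice. These ranges overlapped, but 17 of 18 Htt Q111/+ mice were above the Htt +/+ median. Psme2 rose by 0.19 on the log2 scale (SE 0.037, adjusted p = 0.000101), or 14%.

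The other activators did not pass the test. Psme3, which forms a nuclear ring of the same family, differed by 0.025 (SE 0.019, adjusted p = 0.312), with an interval of −0.013 to 0.063. Psme4, the PA200 cap, differed by −0.0092 (SE 0.027, adjusted p = 0.819), and its sign turned under library totals (0.030), with the L number as a covariate (0.031) and without the mice of L7 (0.012). RefSeq lists a gene nearly identical to Psme2, Psme2b, so reads of the pair may have been shared.

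**Figure D3:**
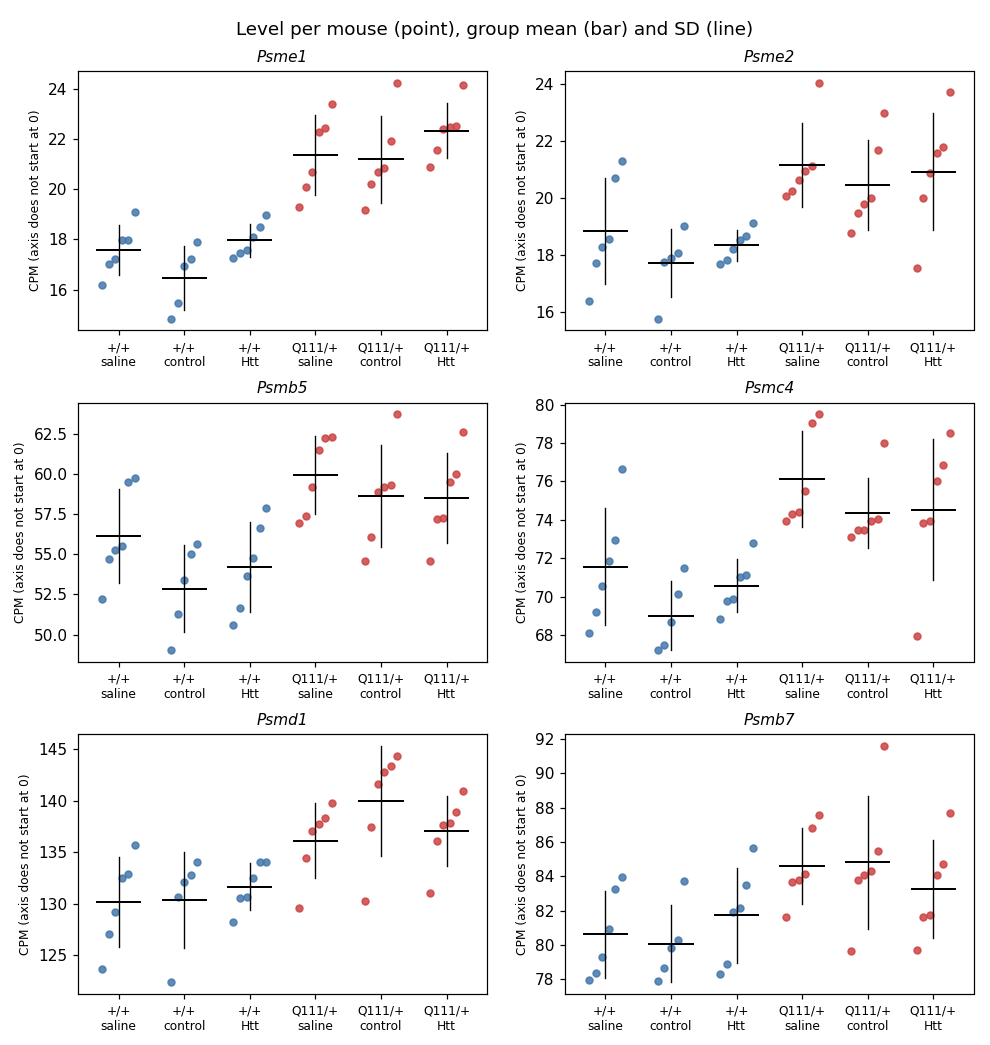
CPM (counts on TMM-scaled library sizes) of Psme1, Psme2, Psmb5, Psmc4, Psmd1 and Psmb7 in each mouse (points), with the group mean (bar) and SD (line), Htt +/+ in blue and Htt Q111/+ in red; the vertical axes do not start at 0. For Psme1 the groups of the 2 genotypes do not overlap (at most 19.1 against at least 19.2 CPM), and for the other genes they do.

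In the beta ring, 3 of 7 genes were higher, Psmb4, Psmb5 and Psmb7, and the ring's median log2 fold change was 0.055. Psmb5, the subunit with the chymotrypsin-like site, had the largest difference of the ring. Its level ran from 49.0 to 59.7 CPM (median 54.8) in Htt +/+ and from 54.6 to 63.7 CPM (median 59.2) in Htt Q111/+ mice, so 6 of 18 mutant mice lay above all controls. It rose by 0.12 (SE 0.024, adjusted p = 0.000181), or 8.52%. Psmb7, with the trypsin-like site, ran from 77.9 to 85.6 CPM (median 80.3) and from 79.7 to 91.6 CPM (median 84.1), with 16 of 18 Htt Q111/+ mice above the control median, and rose by 0.059 (SE 0.017, adjusted p = 0.00638). Psmb6, with the caspase-like site, was at 54.9 to 65.2 CPM and 54.3 to 70.0 CPM, spans that overlapped over most of their length, and its difference of 0.049 (SE 0.027) did not pass (adjusted p = 0.142). Psmb1, which has no cutting site, differed by 0.021 (SE 0.017, adjusted p = 0.338). RefSeq lists pseudogenes of Psmb5, Psmb6 and Psmb7, and of Psma5 in the alpha ring, so the counts of these genes may include shared reads.

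In the alpha ring, which gates the entry to the core, 5 of 7 genes were higher, Psma1, Psma3, Psma4, Psma5 and Psma7, with log2 fold changes of 0.044 to 0.060. The remaining genes were those at the ends of the ring's range of levels. Psma2 ran from 62.2 to 67.9 CPM in Htt +/+ and from 61.4 to 69.2 CPM in Htt Q111/+ mice, a difference of 0.0080 (SE 0.017, adjusted p = 0.741) that turned to −0.0016 without Htt +/+ replicate 1 on Htt ASO. Psma6 differed by 0.016 (SE 0.018, adjusted p = 0.53).

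The 6 ATPases, which form a single ring that unfolds substrates, had estimates of both signs, and only positive ones were called. Psmc3, Psmc4 and Psmc6 were higher, while Psmc1, Psmc2 and Psmc5 had negative estimates that did not pass. These signs depended on the scaling: under library totals the estimates of all 39 genes were positive. Psmc4 ran from 67.2 to 76.6 CPM (median 70.1) in Htt +/+ mice and from 68.0 to 79.5 CPM (median 74.2) in Htt Q111/+ mice, and 17 of 18 mutant mice lay above the control median. It rose by 0.091 (SE 0.018, adjusted p = 9.17e-05). Psmc3 ran from 87.8 to 101 CPM (median 91.6) and from 91.9 to 107 CPM (median 97.7), with all 18 Htt Q111/+ mice above the control median, and rose by 0.086 (SE 0.021, adjusted p = 0.000974). Psmc6 rose by 0.063 (SE 0.024, adjusted p = 0.0335). Psmc5, the most abundant ATPase per kb, ran from 109 to 127 CPM and from 109 to 120 CPM, and differed by −0.030 (SE 0.019, adjusted p = 0.207), a sign that turned under library totals (0.0084). The median log2 fold change of the ring was 0.029.

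Of the 11 non-ATPases, 7 were higher and all 11 estimates were positive, from 0.012 to 0.076. Psmd1, a scaffold of the cap, ran from 122 to 136 CPM (median 132) in Htt +/+ and from 130 to 144 CPM (median 138) in Htt Q111/+ mice, and 14 of 18 mutant mice lay above every control mouse. It rose by 0.075 (SE 0.016, adjusted p = 0.000285). Psmd2 rose by 0.055 (SE 0.014, adjusted p = 0.00226), with all 18 Htt Q111/+ mice above the control median of 196 CPM. Psmd11 ran from 41.2 to 46.2 CPM and from 42.4 to 49.6 CPM, and rose by 0.076 (SE 0.021, adjusted p = 0.00328). The ubiquitin receptor Psmd4 rose by 0.051 (SE 0.018, adjusted p = 0.0231). The deubiquitinase Psmd14, which removes ubiquitin as the protein enters, was at 68.6 to 80.3 CPM and 70.9 to 81.8 CPM, a difference of 0.012 (SE 0.022, adjusted p = 0.718) with an interval of −0.033 to 0.056. Psmd6, Psmd8 and Psmd12 were the other non-ATPases called.

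Among the assembly chaperones, Psmd9 was higher by 0.070 (SE 0.025, adjusted p = 0.0247), and Psmd5 differed by 0.030 (SE 0.019, adjusted p = 0.229). Psmc3ip, the row that is no subunit, ran from 2.40 to 3.73 CPM and from 2.54 to 4.41 CPM. Averaged over treatments it was higher by 0.15 (SE 0.057, adjusted p = 0.0387). Its difference was −0.050 on saline (SE 0.098, adjusted p = 0.799), 0.38 on control ASO (SE 0.10, adjusted p = 0.00887) and 0.11 on Htt ASO (SE 0.096, adjusted p = 0.448). The averaged call of Psmc3ip was lost in 17 of 45 alternative settings.

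Summed over the 39 genes, the level was 2678 ± 45.8 CPM in Htt +/+ mice (SD, n = 17; range 2627 to 2769) and 2757 ± 64.4 CPM in Htt Q111/+ mice (SD, n = 18; range 2648 to 2917). The ranges overlapped between 2648 and 2769 CPM. Taking each mouse's median deviation over the genes from the Htt +/+ mean, 17 of 18 Htt Q111/+ mice and 8 of 17 Htt +/+ mice were above 0. None of the 5 Htt +/+ mice on control ASO was above it, and their sums lay close together, at 2638 ± 7.61 CPM (SD, n = 5), against 2696 ± 54.7 on saline and 2694 ± 37.6 on Htt ASO (SD, n = 6 for both). In Htt Q111/+ mice the groups of 6 had sums of 2764 ± 44.6 CPM with saline, 2765 ± 77.3 with control ASO and 2740 ± 75.2 with Htt ASO (SD). The highest sum of all, 2917 CPM, belonged to Htt Q111/+ replicate 4 on control ASO, a mouse of L7.

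**Figure D4:**
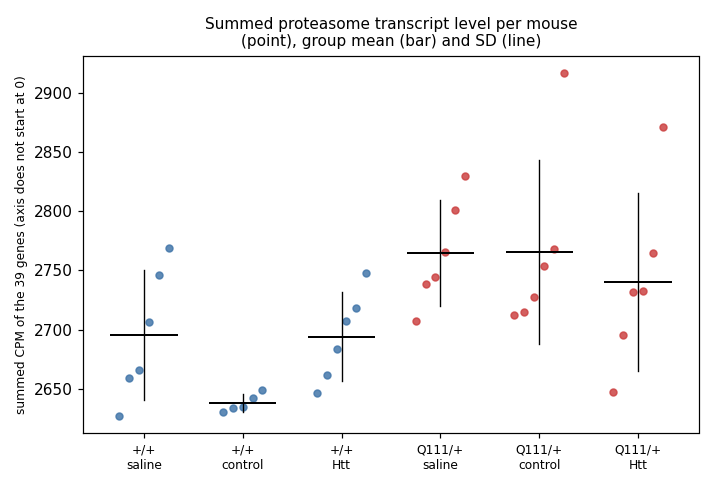
Summed level of the 39 genes in CPM (TMM-scaled) for each mouse (points), with the group mean (bar) and SD (line), Htt +/+ in blue and Htt Q111/+ in red; the axis does not start at 0. The Htt +/+ mice on control ASO lie close together at 2630 to 2649 CPM, and 1 Htt Q111/+ mouse on control ASO lies at 2917 CPM.

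Other values moved with genotype, and their part in these differences was not tested. The summed medium spiny neuron markers were lower as given above, with 7 of 8 markers lower and Tac1 higher. Of the other lists, 3 of 6 astrocyte, 2 of 6 oligodendrocyte, 3 of 6 microglia and 4 of 5 endothelial markers were lower and none was higher, against 18% of all tested genes called lower. Their summed levels overlapped between genotypes: astrocyte markers were at 908 to 1215 CPM in Htt +/+ and 871 to 1057 CPM in Htt Q111/+ mice, oligodendrocyte markers at 9278 to 12354 and 8884 to 10851, microglia markers at 315 to 370 and 282 to 342, and endothelial markers at 217 to 342 and 200 to 241. Markers of cortical neurons (up to 67.6 CPM and up to 69.6 CPM), choroid plexus (21.1 to 1526 and 15.2 to 119) and blood (23.8 to 240 and 10.6 to 94.9) were present at low or uneven levels. None of them was called with the treatments averaged. On control ASO, both measured blood markers were lower in Htt Q111/+ mice: Hbb-b1 (log2 fold change −1.33, SE 0.42, adjusted p = 0.0229) and Alas2 (−1.46, SE 0.49, adjusted p = 0.0327). Neither passed on saline or on Htt ASO. TMM factors, which rescale each library, lay between 0.971 and 1.003 in Htt +/+ and between 0.993 and 1.033 in Htt Q111/+ mice. With library totals in their place, the median log2 fold change of all genes was 0.043 and that of the 39 genes 0.090, and 32 of the 39 were called higher (8089 of all genes were called in either direction, against 7024 with TMM). With median-of-ratios scaling, 17 of the 39 were called higher, 34 were positive and their median was 0.047 (6965 of all genes were called in either direction). The genes that were called only with library totals included, among those described above, Psma2 (0.047, adjusted p = 0.0202), Psma6 (0.055, adjusted p = 0.0132), Psmb1 (0.060, adjusted p = 0.00284), Psmb6 (0.088, adjusted p = 0.0069), Psmd5 (0.069, adjusted p = 0.0048) and Psme3 (0.064, adjusted p = 0.00249). Proteasome transcripts were shorter than those of all tested genes (median 1512 against 2981 bases) and of similar GC content (49.7% against 50.6%). With each mouse's trend on GC content removed, 21 of the 39 were called.

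Without the 6 mice of L7, 13 of the 39 genes were called by genotype, all higher, with 36 positive and a median of 0.042. Of all genes, 5758 were called in either direction. With the L number as a covariate, 17 of the 39 were called, all higher, and 6187 of all genes in either direction. Within the 5 L numbers that held both genotypes, each with only 2 to 4 mice of a genotype, the median difference of the 39 genes was positive in each, from 0.021 (L5) to 0.074 (L6). Psme1 was the higher in mutant mice in all 5, by 0.19 to 0.50 on the log2 scale, Psme2 by 0.13 to 0.25, Psmb5 by 0.052 to 0.14, and Psmc4 by 0.018 to 0.10. Psmb6 was positive in 2 of 5 and Psmc5 in 1 of 5.

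The next comparisons took genotype within each treatment. On saline, 2 of the 39 genes were higher in Htt Q111/+ mice, Psme1 and Psmc4, against 8.67% of all tested genes, so the share of proteasome genes was below that of all genes, although 32 of 39 estimates were positive with a median of 0.036. On control ASO, 13 were higher against 10.1% of all genes: Psma4, Psmb4, Psmb5, Psmc3, Psmc4, Psmd1, Psmd2, Psmd6, Psmd8, Psmd10, Psme1, Psme2 and Psmc3ip. Here 36 of 39 were positive, with a median of 0.079. On Htt ASO, 3 were higher, Psmb5, Psme1 and Psme2, against 10.9% of all genes, with 27 of 39 positive and a median of 0.032. None was lower under any treatment. Psme1 was the 1 gene called under all 3, and 24 of 39 were positive under all 3.

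Psme1 differed by 0.28 (SE 0.054, adjusted p = 0.0002) on saline, by 0.36 (SE 0.058, adjusted p = 2.37e-05) on control ASO and by 0.32 (SE 0.053, adjusted p = 3.3e-05) on Htt ASO. Psme2 differed by 0.17 (SE 0.063, adjusted p = 0.0573), 0.21 (SE 0.067, adjusted p = 0.029) and 0.19 (SE 0.063, adjusted p = 0.028) in the same order. The counts within a treatment moved with single mice. The count on control ASO fell to 8 without Htt Q111/+ replicate 4 on control ASO and to 5 without the mice of L7, and it was 8 with only the groups compared in the fit. The counts on saline and on Htt ASO fell to 1 each without the mice of L7.

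Whether the genotype difference itself changed with treatment was tested as an interaction, and no proteasome gene was called, nor was any other tested gene by limma (0% in each of the 3 interactions; DESeq2 called 1 gene, no member, for control ASO against saline). For Htt ASO against control ASO, 4 of 39 had an unadjusted p below 0.05 (713 of all genes), the smallest adjusted p was 0.999, and edgeR and DESeq2 called 0. For Htt ASO against saline, 1 of 39 (973 of all genes) had an unadjusted p below 0.05, and for control ASO against saline 2 of 39 (1169 of all genes), with smallest adjusted p of 0.85 and 0.735 and 0 of the 39 called by edgeR or DESeq2. Therefore 13 calls on control ASO and 2 or 3 on the others were not shown to differ. Over the 39 genes the median interaction of control ASO against saline was 0.034 and that of Htt ASO against control ASO −0.045, and both use the same control ASO mice.

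**Figure D5:**
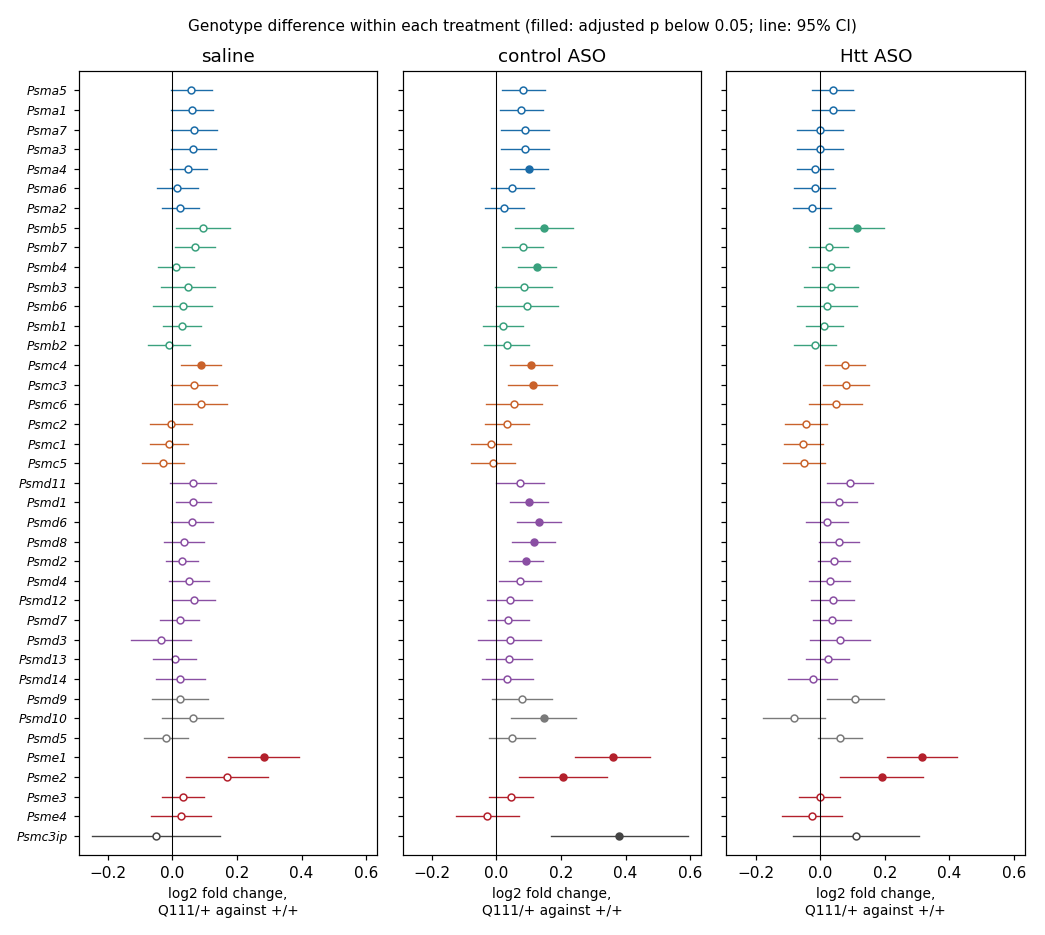
Log2 fold change between Htt Q111/+ and Htt +/+ mice for each of the 39 genes within the 3 treatments, with 95% confidence intervals, filled where the adjusted p was below 0.05 (2, 13 and 3 genes). Psme1 is filled in each panel, and most intervals of the other genes overlap between panels.

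The treatments themselves were compared to see whether systemic Htt ASO moved proteasome transcripts in the striatum. No gene of the 39 was called for Htt ASO against control ASO over both genotypes (0.935% of all tested genes were), where 3 of 39 had an unadjusted p below 0.05 and the smallest adjusted p was 0.456. None was called for Htt ASO against saline (1.47% of all genes; 2 of 39 unadjusted; smallest adjusted p 0.422) or for control ASO against saline (0% of all genes, with 1357 below an unadjusted p of 0.05 and 0 called by edgeR or DESeq2; 3 of 39 unadjusted; smallest adjusted p 0.588). None was called for Htt ASO against control ASO in Htt Q111/+ mice (0.357% of all genes; 1 of 39 unadjusted) or in Htt +/+ mice (0.295%; 4 of 39 unadjusted). EdgeR and DESeq2 called 0 of the 39 in each of these 5 comparisons. The median log2 fold changes of the 39 lay between −0.017 and 0.033. Without any call, signs were still uneven. For Htt ASO against control ASO in Htt +/+ mice, 35 of 39 estimates were positive (median 0.033, against −0.0022 for all genes). For control ASO against saline, 30 of 39 were negative (median −0.017, against −0.0018 for all genes). Both comparisons use the Htt +/+ mice on control ASO, and counts of signs were not tested.

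The member closest to a call between the ASOs was Psme1 over both genotypes. It differed by 0.10 between Htt ASO and control ASO (SE 0.039, 95% confidence interval 0.024 to 0.18, unadjusted p = 0.0121, adjusted p = 0.456). Psme2 differed by 0.043 (SE 0.046, adjusted p = 0.967), with an interval of −0.051 to 0.14. Psmd10, named here after its values were seen, had the smallest adjusted p of the 5 comparisons. It had an estimate below 0 for Htt ASO against control ASO in Htt Q111/+ mice (log2 fold change −0.18, SE 0.047, unadjusted p = 0.000613, adjusted p = 0.108).

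The related genes were counted from lists by function. All 3 immunoproteasome genes, whose products replace the cutting subunits of the core under interferon, were measured at low means of 1.08 to 7.63 CPM. Psmb10, which takes the place of Psmb7, was higher in Htt Q111/+ mice by 0.22 (SE 0.052, adjusted p = 0.000687), at 5.68 to 8.51 CPM against 7.28 to 9.18 CPM. Psmb8 (−0.095, SE 0.080, adjusted p = 0.371) and Psmb9 (−0.11, SE 0.099, adjusted p = 0.4) did not pass. Between treatments the order was another: Psmb8 was higher with Htt ASO than with control ASO by 0.47 (SE 0.098, adjusted p = 0.00614), Psmb9 differed by 0.41 (SE 0.12, adjusted p = 0.12) and Psmb10 by 0.077 (SE 0.064, adjusted p = 0.96). With Htt ASO against saline, Psmb8 (0.37, SE 0.093, adjusted p = 0.0322) and Psmb9 (0.48, SE 0.12, adjusted p = 0.0199) were higher and Psmb10 did not pass (−0.042, SE 0.061, adjusted p = 0.886). Of 9 interferon response genes, 7 were higher with Htt ASO than with control ASO, with a median of 0.86, while by genotype their median was −0.17. The relation of these values to the genotype differences of Psme1 and Psme2 was not tested.

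Of the factors that control proteasome gene transcription, 3 of 4 listed were measured, and 2 were lower in Htt Q111/+ mice. Nfe2l1, the transcription factor that raises proteasome genes when activity falls short, was lower by 0.10 on the log2 scale (−0.10, SE 0.016, adjusted p = 3.57e-06). Ddi2, the protease that activates it, was lower too (−0.27, SE 0.058, adjusted p = 0.00029). Nfe2l2 did not pass (−0.0044, SE 0.031, adjusted p = 0.929). Among 16 measured partners of the assembled proteasome, 3 were higher and 2 lower, with a median of 0.026. Of all tested genes, 21.8% were called higher and 18% lower. Vcp, the ATPase that pulls ubiquitinated proteins out of complexes and membranes, was higher by 0.11 (SE 0.013, adjusted p = 2.46e-08). Ubqln4, a carrier of ubiquitinated proteins, was lower (−0.16, SE 0.022, adjusted p = 3.24e-07). The other 3, named after their values were seen, were the deubiquitinase Uchl5 (0.14, adjusted p = 0.00102), the regulator Psmf1 (0.10, adjusted p = 0.00265) and Shfm1, a small subunit of the 19S cap without the family's symbol (−0.056, adjusted p = 0.0237). Of 5 core assembly chaperones, 2 were measured under the listed symbols, and neither Psmg3 (0.096, adjusted p = 0.074) nor Pomp (−0.027, adjusted p = 0.25) passed.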

How the data were processed

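The authors aligned paired reads of stranded mRNA libraries to the MGSCv37 mouse transcriptome with Bowtie 0.12.9 and estimated counts per gene with RSEM 1.1.18, as named in their methods and the submitters' processing notes. The deposited values are these expected counts, 1 column per mouse, not scaled for library size, and 55.6% of them are whole numbers. RSEM divides reads among similar transcripts, so genes with near copies are less certain. The treatment labelled ASO1 was taken as Htt ASO, the remaining treatment of the study.

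Of 22099 genes listed, 17639 passed filterByExpr (minimum count 10, minimum total 15). Library sizes were scaled by TMM (a trimmed mean that rescales each library), and limma 3.58.1 after voom was fitted in R 4.3.3 with a mean for each of the 6 groups over all 35 mice (29 residual degrees of freedom). Benjamini-Hochberg adjustment covered every gene tested, with calls at 0.05. EdgeR 4.0.16 and DESeq2 1.42.0 were run on expected counts rounded to whole numbers. CPM in the text are TMM-scaled unless named otherwise. The code was tested on simulated data.

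The proteasome genes, the function and marker lists and the tests were chosen with earlier results of these data known. Members named with values were the 6 called with the smallest adjusted p by genotype in each direction, any called between treatments, the catalytic subunits, the activators, Psmd4, Psmd11, Psmd14, and the highest and lowest per kb of each role. Other members are named as called or not. Lengths and GC shares of genes were taken from the GENCODE M21 transcripts on GRCm38, matched by symbol for all 39 members and 83.5% of tested genes. Other settings were library totals, median-of-ratios scaling, no filter, a filter at 1 CPM, the L number as a covariate, no mice of L7, only the groups compared, a GC correction, quality weights and each mouse left out in turn. The labels name separate mice, so replicates are animals.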

Additional observations from a re-analysis of the deposited data

Results flagged for a closer look

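Of 138 combinations of a named gene (or the summed level) and a group, 9 (6.52%) had a highest or lowest mouse that stood far from the others by Dixon's criterion, and chance flags about 1 in 20. All 5 in Htt Q111/+ mice on control ASO came from replicate 4, a mouse of L7: Psmb1 at 97.4 CPM with the next mouse at 92.0, Psmb6 at 70.0 with the next at 62.5, Psmc4 at 78.0 with the next at 74.1, Psmc3ip at 4.41 with the next at 3.58, and the summed level at 2917 with the next at 2768 CPM. In Htt Q111/+ mice on saline, Psme2 was 24.1 CPM in replicate 5 with the next mouse at 21.1, and Psmd14 was 80.6 CPM in replicate 6 with the next at 73.3. Psma2 had a low mouse in both Htt ASO groups, at 62.6 CPM in Htt +/+ replicate 1 with the next at 65.5, and at 61.4 CPM in Htt Q111/+ replicate 4 with the next at 64.4.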

How the results depend on the processing

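In all alternatives no proteasome gene was called lower by genotype, and none was called between treatments. The same held for the interaction of genotype with the 2 ASOs, and the other interactions were not refitted. Counts of all genes in this section are calls in either direction. Library totals without TMM gave 18 genes by genotype with saline, 20 with control ASO and 20 with Htt ASO (of all genes 3874, 3725 and 5324, against 3078, 3266 and 3733 with TMM), where the median of all genes moved to 0.047, 0.027 and 0.060. Without the mice of L7 the counts were 13 over all treatments (5758 of all genes against 7024), 1 with saline, 5 with control ASO and 1 with Htt ASO (of all genes 2110, 1902 and 3039), with fewer mice in each fit. The GC correction gave 5 on saline (3227 of all genes), quality weights gave 5 on Htt ASO (4252), and the fit of only the groups compared gave 1 on saline (2365) and 8 on control ASO (2481). The cause of these changes was not tested. With each mouse left out in turn, the counts ran from 16 to 22 over all treatments, from 1 to 3 with saline, from 8 to 14 with control ASO and from 1 to 4 with Htt ASO. The saline count fell to 1 without Htt +/+ replicate 1, 2, 4 or 6 or Htt Q111/+ replicate 2 or 5 on saline, the control ASO count to 8 without Htt Q111/+ replicate 4, and the Htt ASO count to 1 without Htt +/+ replicate 2, 4 or 5 or Htt Q111/+ replicate 3 or 5 on Htt ASO. Among the named genes, signs turned for Psmc5 (0.0084 under library totals) and Psme4 (0.030 under library totals, 0.031 with the L number, 0.012 without L7). The sign of Psma2 turned as well (−0.0016 without Htt +/+ replicate 1 on Htt ASO, within a range of −0.0016 to 0.014 with each mouse left out). None of them was called where the sign turned. Under library totals the estimates of all 39 genes were positive, so those of Psmc1 and Psmc2 turned too. The 6 named genes given in the report as called under library totals included Psma2 (0.047). Psme1, Psme2, Psmb5, Psmb7, Psmc3, Psmc4, Psmd1 and Psmd11 stayed called by genotype in all 45 settings, and Psmc3ip lost its call in 17, Psmc6 in 12, Psmd4 in 5, Psmd9 in 3 and Psmd2 in 1. No paired analysis was possible because the labels give no replicate numbers that the groups share, and the L number entered as a covariate instead.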

Other observations

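Psme1 and Psme2 lie close together on chromosome 14 with 1 protein-coding gene between them, Emc9 (listed as 1500005A01Rik), and Psmb5 lies on the same chromosome with 31 protein-coding genes between it and Psme1. The measured neighbours from 6 genes before to 8 genes after Psme1 were looked at after the values of Psme1 and Psme2 were seen. By genotype, Rnf31, a ubiquitin ligase gene beside Psme2, was higher (log2 fold change 0.16, adjusted p = 2.6e-05), as were Tm9sf1 (0.092, adjusted p = 0.000506) and Pck2 (0.12, adjusted p = 0.0287). These calls stand beside 21.8% of all tested genes called higher and 18% called lower, and whether the region differs from other regions was not tested. Emc9 (0.066, adjusted p = 0.144), Dcaf11 (listed as Wdr23; 0.011, adjusted p = 0.65) and Irf9 (listed as Isgf3g; −0.12, adjusted p = 0.0875) did not pass. Nor did Cpne6 (0.090, adjusted p = 0.122), Rec8 (−0.025, adjusted p = 0.86), Ipo4 (listed as RanBP4; 0.57 at a mean of 1.80 CPM, adjusted p = 0.284) and Tssk4 (−0.14, adjusted p = 0.515).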
